A study of Homo sapiens with 24 samples.

Results

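The genes described here build ribosomes. A list of 50 genes of ribosome biogenesis and of RNA polymerase I was followed in lines of T-ALL, the acute lymphoblastic leukaemia of T cells, treated with the compound NVS-ZP7-3, and the change of each gene was set beside that of MYC in the same line. A gene was matched by its current or former symbol and represented by its brightest probe set that names a single gene. Of the 50, 44 had such a probe set, and all 44 passed the filter on low values, so no member was lost to low signal. BOP1, NOP56 and DKC1 had only probe sets that name several genes, and DDX18, GNL3 and EBNA1BP2 had none matched by the annotation used. The 44 members comprised 13 of 13 listed factors of the small subunit processome, 6 of 6 of late maturation of the small subunit, 10 of 14 of the large subunit, 6 of 8 of the small nucleolar ribonucleoproteins (snoRNPs), 6 of 6 of RNA polymerase I (Pol I) and 3 of 3 abundant nucleolar proteins with several roles. They were compared with the 10661 genes tested in all, out of 19775 with a probe set of their own.

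Ribosomes are assembled mainly in the nucleolus. Pol I transcribes the long precursor of the ribosomal RNAs, snoRNPs modify it at chosen bases, and large assemblies of processing factors fold and cut it into the precursors of the small and the large subunit. The transcription factor MYC is known to raise many of these genes, binding with its partner MAX to the sequence CACGTG (the E-box), and in T-ALL it is a well known target of Notch signalling.

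The series measured 4 established human T-ALL cell lines on Affymetrix expression arrays. The lines RPMI-8402, P12-ICHIKAWA, SUPT11 and TALL-1 were each exposed for 16 h either to the solvent DMSO, kept at 0.5% in all groups, or to NVS-ZP7-3, and each of these 8 groups had 3 arrays. The compound carries the code name of a group described as inhibitors of the zinc transporter SLC39A7 (ZIP7), and the labels name neither a target nor a dose. No genotype or manipulation beyond the line itself is given, each line stands for a single leukaemia, and nothing says that the 3 arrays came from separate cultures, so that the p-values rest on the spread among these arrays alone and this spread may be technical.

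Values are GCRMA log2 signals as deposited, with a floor of 2.18 and maxima between 16.06 and 16.16, and a difference of 1 on this scale is a factor of 2. A gene was called when its limma p-value, adjusted by Benjamini-Hochberg over all 10661 genes, lay below 0.05. The words rose and fell are used for called genes only. Counts at an unadjusted limma p under 0.05 are given for the members alone. They are not to be set against the shares of all genes, which use the adjusted p. As in any bulk sample of a culture, fewer cells of a kind and less RNA per cell cannot be told apart. Of 13 markers of the T lineage, 12 had a probe set and 9 to 11 of them read log2 4 or more on all arrays of a group. Some of these markers fell as well, though not line for line with the members. In TALL-1 6 of 12 fell (median -0.32) and their summed level went from between 16.0 and 16.07 to between 15.63 and 15.74. In RPMI-8402 6 fell (-0.15; 15.67 to between 15.4 and 15.44), in P12-ICHIKAWA 4 (-0.11; 16.09 to 16.15 against 15.94 to 15.98) and in SUPT11 none (-0.01; 15.68 to 15.73 against 15.61 to 15.66), and none rose in any line. The shares of all tested genes that fell were 19.6% in TALL-1, 21.5% in RPMI-8402 and 2.98% in P12-ICHIKAWA. The excess of the 3' over the 5' control probe set of ACTB, which reads RNA integrity, was higher on treated than on DMSO arrays in TALL-1 (2.40 to 2.62 against 1.96 to 2.08) and RPMI-8402 (2.28 to 2.6 against 2.06 to 2.20), and its group means differed by 0.048 in SUPT11 and 0.044 in P12-ICHIKAWA. The globin gene HBB read 11.45, 8.17 and 7.96 on the treated P12-ICHIKAWA arrays against 2.18 to 2.29 with DMSO. It was high on other arrays as well, at 9.42 and 14.65 on RPMI-8402 DMSO arrays 1 and 3 (2.32 on array 2), 10.48, 8.63 and 12.99 on the treated RPMI-8402 arrays, 10.61 on treated SUPT11 array 2, 4.58 on treated SUPT11 array 3 and 7.96 on treated TALL-1 array 1. On the treated P12-ICHIKAWA arrays 4 of the 5 erythroid markers with a probe set stayed near the floor, and the summed level of the 9 myeloid markers was 6.35 to 8.2 there against 5.36 to 5.47. On the RPMI-8402 DMSO arrays only 1 of the 5, AHSP, stayed near the floor on every array. The summed myeloid level ranged from 5.35 to 13.21 there and from 6.05 to 10.06 on the treated arrays of that line. The myeloid gene LYZ read 12.54 on RPMI-8402 DMSO array 3. In addition 3 arrays (treated TALL-1 array 2, treated SUPT11 array 2 and RPMI-8402 DMSO array 3) carried 18 to 29 transcripts otherwise near the floor in their line. Whether these signals are carry-over of other RNA, and the part of any of these measures in the results, was not tested, and results are given with and without the 3 arrays or with HBB or ACTB as a covariate where it matters.

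The promoters of the members were read first, since E-boxes are a known feature of such genes. The RefSeq table of promoters (GRCh38.p14, 250 bases before to 50 bases after the first listed transcription start) held 38 of the 44 tested members. RRP12, RRP1B, RRS1, NOP58, NOLC1 and POLR1E were not matched. The palindrome CACGTG, which reads the same on both strands, was present in 15 of the 38 (39.5%), in 10.7% of the promoters of 8820 tested genes and in 7.43% of all 27305 promoters of this length. When every listed start of a gene was read, the shares were 17 of 38 (44.7%), 13.2% and 8.77%. The related letters CACGCG, searched on both strands and sharing no base with any CACGTG match, occurred in 14 of 38 (36.8%), 19% and 11.4%. A match is a description of the letters and no measurement of binding. Among the members whose values are given in full below, UTP20, NOP14, RRP9 and BYSL had a match, and the 30 bases around it are printed 5′ to 3′ on the strand of the gene, with the match in capitals, to show where it lies.
UTP20, chr12:101280083-101280112, plus strand: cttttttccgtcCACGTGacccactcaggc
NOP14, chr4:2963374-2963403, minus strand: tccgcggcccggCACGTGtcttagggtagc
RRP9, chr3:51941892-51941921, minus strand: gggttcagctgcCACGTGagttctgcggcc
BYSL, chr6:41921515-41921544, plus strand: ttcttcagtcccCACGTGcgatccttcccg
The first base of the match lay 10 bases before the listed start of UTP20 and 5 before that of RRP9, and 15 and 28 bases after the starts of NOP14 and BYSL. Upstream stretches of 250 bases are shown for contrast, UTP20 with its match close to the start and POLR1B, a Pol I subunit with a large fall in RPMI-8402 (given below), whose 300-base window held neither CACGTG nor CACGCG.
UTP20, chr12:101279855-101280104, plus strand: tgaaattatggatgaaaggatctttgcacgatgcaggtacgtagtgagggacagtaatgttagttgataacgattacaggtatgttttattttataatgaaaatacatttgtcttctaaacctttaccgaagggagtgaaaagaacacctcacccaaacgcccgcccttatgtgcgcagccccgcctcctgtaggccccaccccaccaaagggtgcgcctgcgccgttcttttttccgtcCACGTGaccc
POLR1B, chr2:112541786-112542035, plus strand: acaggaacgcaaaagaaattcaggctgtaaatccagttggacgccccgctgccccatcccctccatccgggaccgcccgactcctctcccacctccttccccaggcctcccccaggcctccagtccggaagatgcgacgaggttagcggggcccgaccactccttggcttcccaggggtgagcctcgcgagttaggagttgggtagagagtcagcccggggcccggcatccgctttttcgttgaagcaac
Apart from the capitals, the UTP20 stretch held no further match.

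In RPMI-8402, 36 of the 44 members fell with NVS-ZP7-3 and none rose, where 21.5% of all tested genes fell and 15.1% rose. At an unadjusted limma p under 0.05 the counts were 37 and 0. Their median change was -0.41, against -0.02 for all tested genes, and 43 of the 44 estimates were below 0. In 37 members all treated arrays lay below all DMSO arrays, which held for 28.7% of all genes. On single arrays the median signal over the members was 12.26, 12.31 and 12.26 with DMSO and 11.82, 11.91 and 11.88 with the compound, and all treated values lay below all DMSO values.

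In TALL-1, 27 members fell and 2 rose, against 19.6% and 22.3% of all tested genes. The 2 rises were those of NOB1 and of the brightest probe set of NOP16. Each was lost in some settings, and the probe sets of NOP16 disagreed in direction. The median change of the members was -0.30 (0.00 for all genes) and 26 members had treated arrays wholly below the DMSO arrays (23.3% of all genes). TALL-1 and RPMI-8402 shared 25 falling members, that is 25 of 27 and 25 of 36, where 9.85% of all genes fell in both. With the ACTB difference as a covariate 23 members were called in TALL-1, 22 of them shared with the fit without it, and 32 in RPMI-8402, 31 of them shared. The calls lost in that fit were DDX10, NOB1, NOP10, NOP14, PNO1, WDR3 and WDR43 in TALL-1, and FBL, NOP10, POLR1E, RRP1B and UTP3 in RPMI-8402. Fitted on its own 6 arrays TALL-1 gave 18 calls, without DDX10, NOB1, NOC2L, NOP10, NOP14, NOP2, PNO1, POLR1A, UTP18, UTP4 and WDR43. With the mean of all probe sets of a gene, TALL-1 lost DDX10, NCL, NOP16, RRP1B and WDR3 and gained DDX21 and TSR1. RPMI-8402 lost DDX56 and NCL and gained NOP16, PNO1, POLR1A and TSR1, and RRP12 was not tested there, since its other probe sets lie at the floor and their mean did not pass the filter. Of the remaining settings, HBB as a covariate lost DDX10 and NOP2 in TALL-1 and UTP3 in RPMI-8402. Without the filter DDX10, NOC2L, NOP2 and POLR1A were lost in TALL-1, and NOC2L, RRP1B, UTP18 and UTP3 in RPMI-8402. With the replicate number as a block DDX10 and NOP10 were lost in TALL-1, and NOP10, RRP1B and UTP3 in RPMI-8402. RPMI-8402 fitted alone lost NCL, NOP10, RRP1B and UTP18, and median centring lost RRP1B there.

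In SUPT11 and P12-ICHIKAWA few members passed the test, although nearly all estimates pointed down. In SUPT11, 3 members fell and none rose (0.582% and 1.18% of all genes, 1.76% in either direction, and 11 and 0 members at an unadjusted limma p under 0.05), with a median of -0.10 and 40 of 44 estimates below 0. In P12-ICHIKAWA, 3 fell and none rose (2.98% and 4.91% of all genes, 7.89% in either direction, and 10 and 0 members at an unadjusted limma p under 0.05), with a median of -0.09 and 41 of 44 below 0. The share of all genes at an unadjusted p under 0.05 was not computed, so the unadjusted counts have no background here. Over all tested genes the median change was 0.00 in both lines. Treated arrays lay wholly below DMSO arrays for 21 members in SUPT11 and 9 in P12-ICHIKAWA, against 7.77% and 9.5% of all genes, and wholly above for none, against 8.79% and 11.9%. The 3 members called in P12-ICHIKAWA became 1 (UTP15) with HBB as a covariate. These counts are small and moved with single arrays. Leaving out SUPT11 DMSO array 2, DMSO array 3 or treated array 3 left 1 call in SUPT11, and leaving out P12-ICHIKAWA DMSO array 1 or 2 or treated array 2 or 3 left 1 call there. Without the 3 arrays that carried foreign transcripts, SUPT11 and P12-ICHIKAWA had 2 calls each, against 26 for TALL-1 (NOC2L, NOP2 and UTP18 lost) and 33 for RPMI-8402 (NOC2L, NOP10, RRP1B and UTP3 lost, POLR1A gained).

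**Figure D1:**
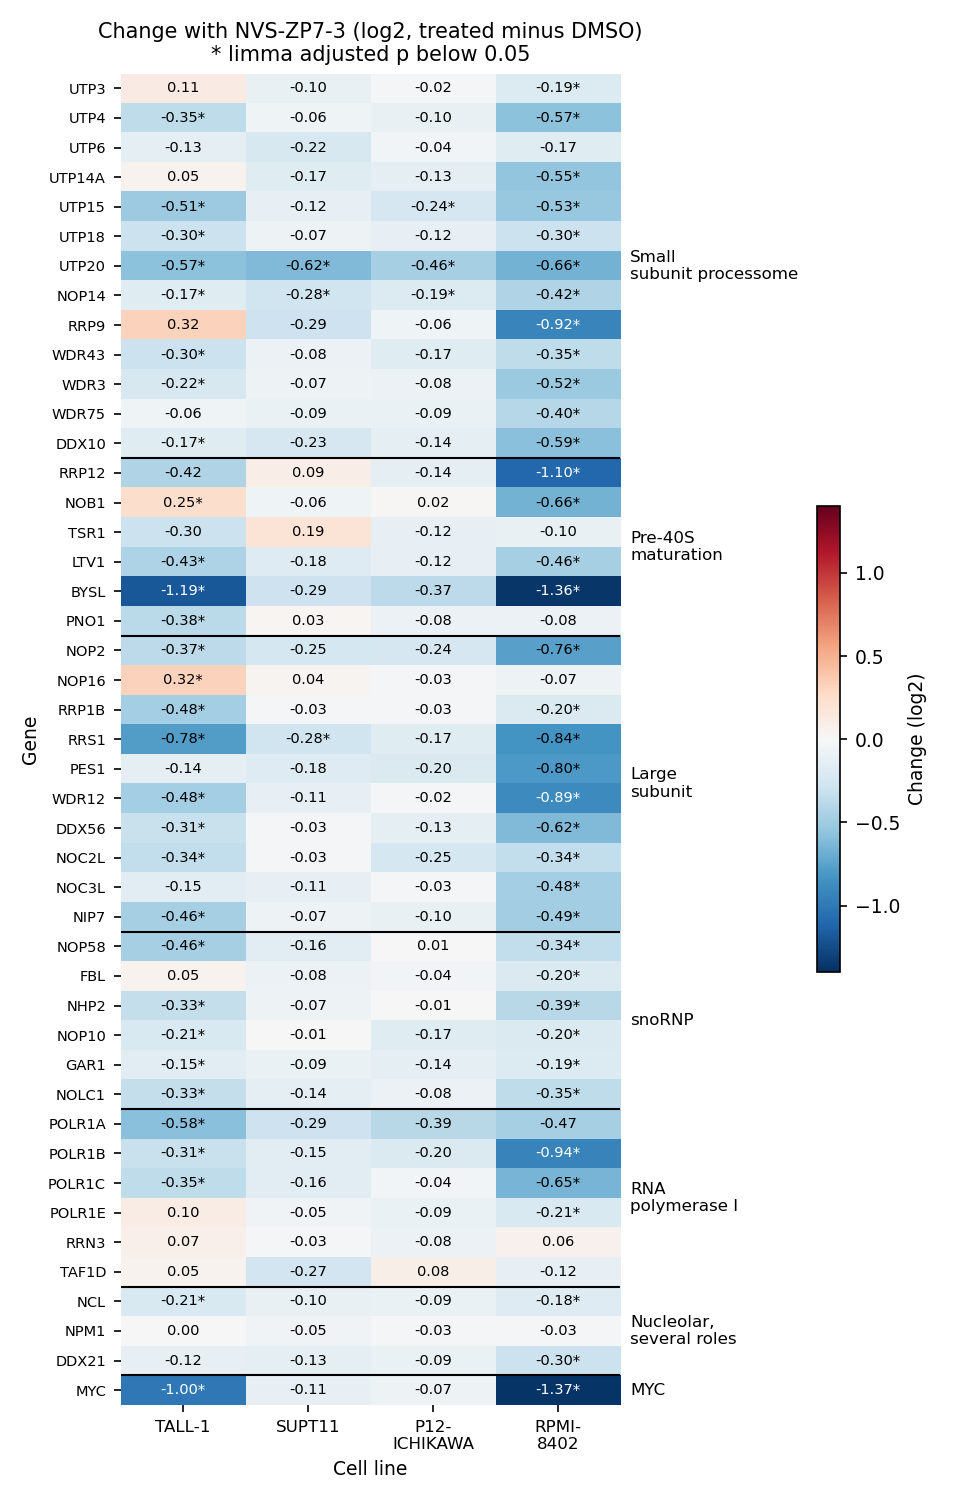
Change of each of the 44 members and of MYC (rows, by role) with NVS-ZP7-3 in each line (columns), as treated minus DMSO on the log2 scale, each from 3 arrays against 3, where blue is lower, red is higher and an asterisk marks a limma adjusted p below 0.05. RPMI-8402 and TALL-1 are blue over most roles, with 36 and 27 falling members, while SUPT11 and P12-ICHIKAWA have 3 each.

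On average over the lines, 35 members fell and none rose (24.5% and 22.4% of all genes, 46.9% in either direction), and 38 and 1 members passed an unadjusted limma p under 0.05. Their median was -0.22. The size of the response depended on the line for 25 of the 44 members by an F test of the interaction (35.8% of all genes). Against the mean of the other 3 lines, 24 members changed more strongly downwards in RPMI-8402 (11.4% of all genes) and none upwards (7.08%; 28 and 0 members at an unadjusted limma p under 0.05). TALL-1 was lower than the mean of the others for 8 members (11.8%) and higher for 5 (16.9%), and SUPT11 and P12-ICHIKAWA were each higher for 8 (7.17% and 3.65%) and lower for none (8.08% and 4.73%; 16 and 17 members higher and 0 lower at an unadjusted limma p under 0.05). RPMI-8402 had the lowest estimate of the 4 lines for 33 members, which held for 33.9% of all genes. SUPT11 and P12-ICHIKAWA did not differ from each other for any member by limma, adjusted or at an unadjusted p under 0.05, and the differences of their changes ranged from -0.35 to 0.31 (1.08% of all genes were lower in SUPT11 and 0.741% higher). The change was higher in SUPT11 than in RPMI-8402 for 20 members and lower for none (9.83% and 7.59% of all genes), and higher in P12-ICHIKAWA than in RPMI-8402 for 22 and lower for none (8.15% and 6.27%). At an unadjusted limma p under 0.05 these counts were 24 and 0, and 25 and 0. TALL-1 was lower than SUPT11 for 12 members and higher for 1 (11.9% and 14.9%), and lower than P12-ICHIKAWA for 10 and higher for 1 (9.15% and 12%). TALL-1 and RPMI-8402 differed for 17 members, the change being higher in TALL-1 in all 17 (14.9% of all genes higher and 8.7% lower; 20 and 1 members at an unadjusted limma p under 0.05).

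The small subunit processome, the early assembly that forms on the leading part of the precursor, is the largest of the groups. Of its 13 members 12 fell in RPMI-8402 (median -0.52), 8 in TALL-1 (-0.17), 2 in SUPT11 (-0.12) and 3 in P12-ICHIKAWA (-0.12), and no estimate in RPMI-8402, SUPT11 or P12-ICHIKAWA was above 0. UTP6, of the UTP-B subcomplex, was the exception in RPMI-8402 with -0.17 ± 0.085 (SE, adjusted p = 0.136).

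UTP20, a very large helical-repeat protein of the processome, fell in all 4 lines. In TALL-1 it read 9.38, 9.29 and 9.16 with DMSO and 8.72, 8.67 and 8.73 with NVS-ZP7-3. On the SUPT11 arrays the values were 7.35, 7.54 and 8.04 against 6.97, 7.03 and 7.07. The treated arrays lay below the DMSO arrays in both, and the DMSO arrays of SUPT11 were the most scattered. In P12-ICHIKAWA it read 10.43, 10.34 and 10.34 with DMSO and 9.98, 9.93 and 9.81 treated. In RPMI-8402 the values were 10.46, 10.52 and 10.23 against 9.64, 9.70 and 9.91. No treated array reached a DMSO array of its line. The changes were -0.57, -0.62, -0.46 and -0.66 (SE 0.12; limma adjusted p = 9.70e-04, 0.00898, 0.0256 and 3.56e-04, in the order TALL-1, SUPT11, P12-ICHIKAWA, RPMI-8402), so that the treated level was 67.4, 65.3, 72.7 and 63.5% of the DMSO level on the linear scale. Unlike most strong responders it gave an interaction adjusted p of 0.787. The call in P12-ICHIKAWA was lost with HBB as a covariate, without the filter and with the replicate block (adjusted p up to 0.155) and without any of P12-ICHIKAWA DMSO arrays 1 to 3 or treated arrays 2 and 3 (up to 0.0997), and that in SUPT11 was lost in a fit of that line alone (0.31).

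NOP14, a scaffold protein of the same particle, was the other member that fell in all 4 lines, by smaller steps. With DMSO it read 11.73, 11.70 and 11.59 in TALL-1, and 11.55, 11.53 and 11.43 when treated. On the SUPT11 arrays it read 11.73, 11.90 and 11.95 against 11.57, 11.65 and 11.54. The groups did not overlap in either line, and the margin in TALL-1 was the narrower. In P12-ICHIKAWA the values were 12.79, 12.80 and 12.79 against 12.57, 12.59 and 12.65. In RPMI-8402 they were 12.38, 12.42 and 12.50 against 11.97, 12.02 and 12.04. Again no treated array reached a DMSO array. The changes were -0.17, -0.28, -0.19 and -0.42 (SE 0.056; limma adjusted p = 0.0193, 0.0102, 0.0395 and 1.02e-05). The P12-ICHIKAWA call was lost without any of its own 6 arrays or treated SUPT11 array 1 (up to 0.135), and with HBB as a covariate, median centring, quantile normalization, the replicate block or the 3 arrays with foreign transcripts left out (up to 0.0765). The SUPT11 call was lost without DMSO array 2 or 3 or treated array 3 (up to 0.0667) or in the line alone (0.232), and the TALL-1 call without DMSO array 1 or 2 or treated array 3 (up to 0.0966), in the line alone or with the ACTB covariate (up to 0.163). UTP20 and NOP14 are 2 of the 3 genes among 10661 called lower in all 4 lines (0.0281%). Treated arrays lay below DMSO arrays in all 4 lines for UTP20, NOP14, UTP15 and DDX21, 4 of the 44 members, against 1.13% of all genes.

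UTP15 and UTP4 belong, with WDR43 and WDR75, to the UTP-A subcomplex, which binds the start of the precursor and has been linked to Pol I transcription. UTP15 read 10.36, 10.43 and 10.56 with DMSO and 9.93, 9.94 and 9.96 treated in TALL-1, and 11.55, 11.44 and 11.61 against 10.97, 11.04 and 11.01 in RPMI-8402. In P12-ICHIKAWA it read 12.09, 12.01 and 12.17 against 11.88, 11.79 and 11.87, and in SUPT11 12.17, 12.18 and 12.19 against 12.06, 12.03 and 12.08. All 4 lines separated treated from DMSO arrays, with a wider gap in TALL-1 and RPMI-8402. It fell by 0.51, 0.24 and 0.53 in TALL-1, P12-ICHIKAWA and RPMI-8402 (SE 0.054; limma adjusted p = 3.95e-07, 0.00693 and 3.88e-07), and its change in SUPT11 was -0.12 (adjusted p = 0.489). With the mean of all its probe sets the adjusted p in P12-ICHIKAWA was 0.53, and the call was also lost in that line alone. UTP4 fell by 0.35 in TALL-1 and 0.57 in RPMI-8402, WDR43 by 0.30 and 0.35, and WDR75, called in RPMI-8402 alone, by 0.40, with -0.06 in TALL-1 (SE 0.070 to 0.077).

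Within UTP-B, WDR3 fell by 0.22 in TALL-1 and 0.52 in RPMI-8402 (SE 0.042), and its fall in RPMI-8402 exceeded the mean of the other lines by 0.39 (limma adjusted p = 1.39e-05). UTP18 fell by 0.30 in both lines (SE 0.10), a call lost in TALL-1 without DMSO array 1 or 3 or treated array 2 of that line, and in RPMI-8402 without DMSO array 1 or 2 or treated array 1 or 3. UTP14A, which activates a processome helicase, fell in RPMI-8402 by 0.55 and had an estimate of 0.05 in TALL-1, the response of TALL-1 lying 0.33 above the mean of the others (adjusted p = 0.0179). The helicase DDX10 fell by 0.59 in RPMI-8402 and by 0.17 in TALL-1 (SE 0.065), the latter lost also without TALL-1 DMSO array 1 or 2 or treated array 1. UTP3 fell by 0.19 in RPMI-8402 (adjusted p = 0.0446), a call lost without any RPMI-8402 array but DMSO array 2 and without any of 8 arrays of other lines, and had an estimate of 0.11 in TALL-1.

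RRP9, a protein specific to the U3 snoRNP around which the processome forms, had changes that ranged over 1.24 among the lines. In RPMI-8402 it read 8.02, 8.35 and 8.05 with DMSO and 7.23, 7.23 and 7.19 treated, a fall of 0.92 ± 0.22 (limma adjusted p = 0.00318). On the TALL-1 arrays it read 7.28, 6.06 and 6.65 with DMSO and 6.66, 7.08 and 7.21 treated, a change of 0.32 ± 0.22 (adjusted p = 0.289). The DMSO arrays of TALL-1 spanned the treated ones, and without TALL-1 DMSO array 1 the gene would have been called higher there (adjusted p = 0.0175). In SUPT11 the values were 7.06, 7.10 and 7.10 against 6.71, 6.76 and 6.93, without overlap, and in P12-ICHIKAWA 8.46, 8.14 and 7.82 against 8.16, 8.29 and 7.79, with overlap. The responses of TALL-1 and RPMI-8402 differed by 1.24 ± 0.32 (adjusted p = 0.00844).

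**Figure D2:**
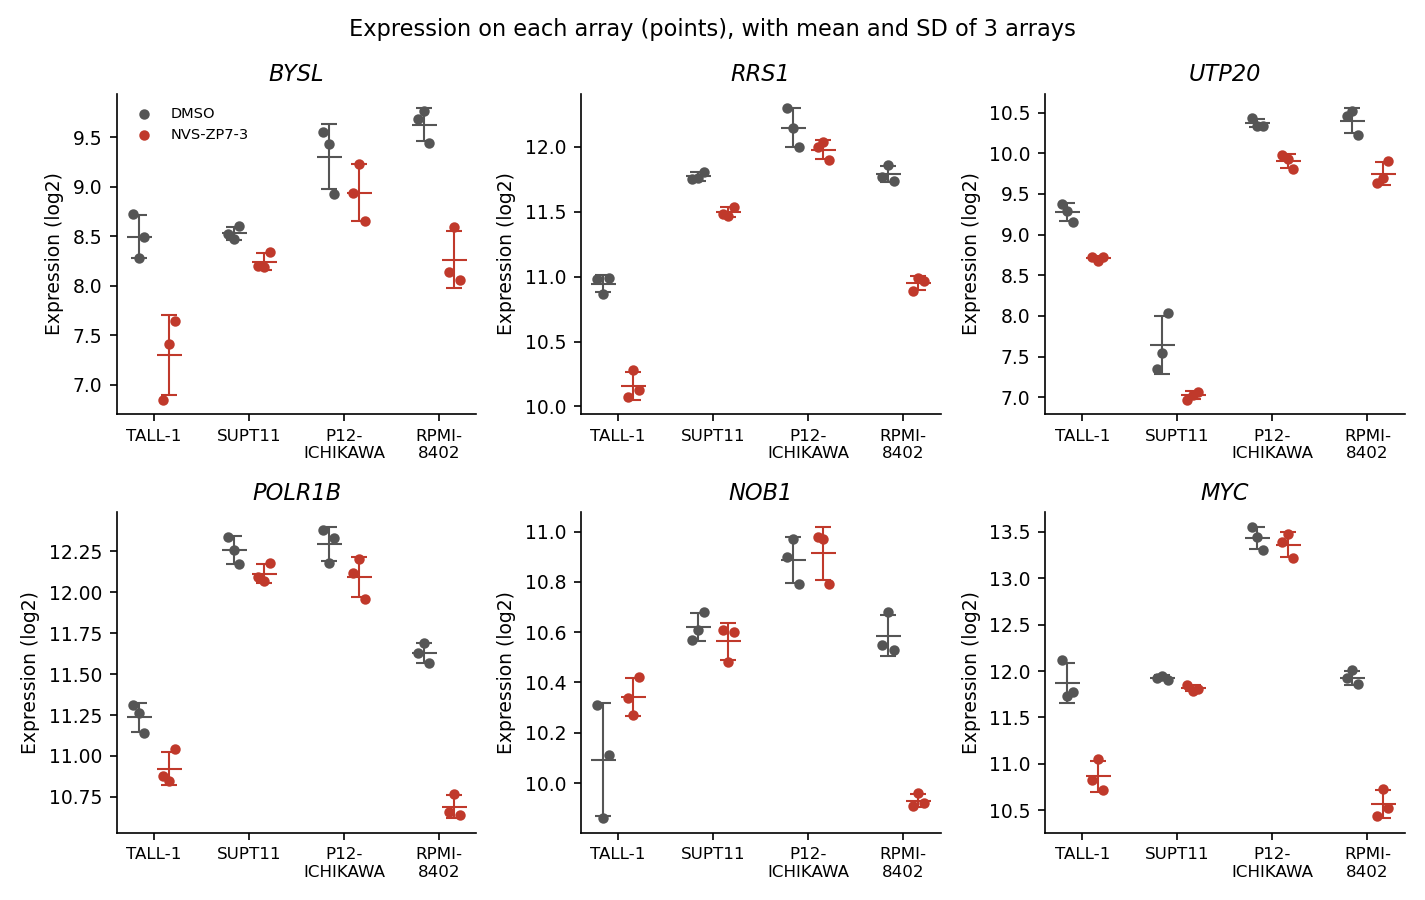
Log2 signal of BYSL, RRS1, UTP20, POLR1B, NOB1 and MYC on every array (points; grey DMSO, red NVS-ZP7-3) in the 4 lines, with the mean and SD of 3 arrays as bars; the vertical axes differ between genes and do not start at 0. BYSL, RRS1, POLR1B and MYC separate widely in TALL-1 or RPMI-8402, and UTP20 separates in all 4 lines. NOB1 separates downwards in RPMI-8402, while in TALL-1 its treated mean is higher but the groups overlap.

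Factors of late maturation of the small subunit include the largest single fall. Of 6, 4 fell in RPMI-8402 (median -0.56), and 3 fell and 1 rose in TALL-1 (-0.40). In SUPT11 and P12-ICHIKAWA none of the 6 was called, with medians of -0.01 and -0.12.

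BYSL (bystin), which is needed for export and trimming of the small-subunit precursor, had the largest fall of all members. In TALL-1 it read 8.72, 8.28 and 8.49 with DMSO and 6.85, 7.41 and 7.64 treated. In RPMI-8402 it read 9.68, 9.76 and 9.44 against 8.14, 8.59 and 8.06. The treated arrays lay far below the DMSO arrays in both. In SUPT11 the values were 8.52, 8.47 and 8.60 against 8.20, 8.19 and 8.34, without overlap, and in P12-ICHIKAWA 9.55, 9.43 and 8.93 against 8.94, 9.23 and 8.65, with overlap. It fell in TALL-1 and RPMI-8402, with changes of -1.19 and -1.36 (SE 0.20; limma adjusted p = 8.43e-05 and 2.94e-05), to 43.7% and 39% of the DMSO level, while the changes in SUPT11 and P12-ICHIKAWA were -0.29 and -0.37 (adjusted p = 0.897 and 0.326). The fall in TALL-1 exceeded that in SUPT11 by 0.91 ± 0.28 (adjusted p = 0.0229), and TALL-1 and RPMI-8402 differed by 0.16 ± 0.28 (adjusted p = 0.734).

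RRP12, an export factor, fell by 1.10 ± 0.21 in RPMI-8402 (limma adjusted p = 4.37e-04), from 7.47, 7.10 and 7.01 to 5.82, 6.17 and 6.30. On the TALL-1 arrays it read 6.55, 6.26 and 6.44 with DMSO and 5.61, 6.06 and 6.31 treated, with overlap and a change of -0.42 (adjusted p = 0.118). In SUPT11, at 4.36, 4.76 and 3.85 against 4.24, 4.24 and 4.76, it was close to the filter limit of log2 4, and in P12-ICHIKAWA, at 6.93, 6.76 and 6.82 against 6.58, 6.78 and 6.72, the groups overlapped as well. LTV1, which leaves the particle late, fell in both TALL-1 and RPMI-8402 by 0.43 and 0.46 (SE 0.053).

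NOB1, the nuclease that makes the final cut of the small-subunit RNA, had estimates of opposite sign in RPMI-8402 and TALL-1. In RPMI-8402 it fell by 0.66 ± 0.088 (limma adjusted p = 9.86e-06), from 10.55, 10.68 and 10.53 to 9.91, 9.96 and 9.92, with no overlap. In TALL-1 it rose by 0.25 (adjusted p = 0.0266), from 10.31, 9.86 and 10.11 to 10.34, 10.27 and 10.42. The TALL-1 groups overlapped, since DMSO array 1 lay above treated array 2. That rise was lost with the ACTB covariate (adjusted p = 0.379), in a fit of TALL-1 alone and without TALL-1 DMSO array 2 or 3 or treated array 1 or 3 (up to 0.195). The difference between the responses of TALL-1 and RPMI-8402 was 0.91 ± 0.12 (adjusted p = 3.20e-05). SUPT11 read 10.57, 10.61 and 10.68 with DMSO and 10.61, 10.48 and 10.60 treated, and P12-ICHIKAWA 10.90, 10.97 and 10.79 against 10.98, 10.97 and 10.79, with overlap in both. PNO1, the partner that holds NOB1 in check, fell in TALL-1 by 0.38 ± 0.11 and had an estimate of -0.08 in RPMI-8402, and the GTPase-like TSR1 had -0.30 and -0.10 with no call. For both, the brightest probe set is of a kind that may cross-hybridise, and their other probe sets moved further down, by 0.76 and 0.79 for PNO1 and 0.32 to 0.52 for TSR1 in RPMI-8402.

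Among 10 factors of the large subunit, 9 fell in RPMI-8402 (median -0.55) and 7 fell and 1 rose in TALL-1 (-0.35). The rise was that of the brightest probe set of NOP16, given with its other probe sets below. In SUPT11 RRS1 was the single call and in P12-ICHIKAWA there was none (medians -0.09 and -0.11).

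RRS1, which helps to install the smallest ribosomal RNA in the large subunit, read 10.98, 10.87 and 10.99 with DMSO and 10.07, 10.28 and 10.13 treated in TALL-1. In RPMI-8402 it read 11.77, 11.86 and 11.74 against 10.89, 10.99 and 10.97. The SUPT11 arrays gave 11.75, 11.76 and 11.81 against 11.48, 11.47 and 11.54. The groups did not overlap in any of these lines, and they were wide apart in TALL-1 and RPMI-8402 and closer in SUPT11. In P12-ICHIKAWA the values, 12.30, 12.15 and 12 against 12, 12.04 and 11.90, overlapped. It fell by 0.78, 0.84 and 0.28 in TALL-1, RPMI-8402 and SUPT11 (SE 0.068; limma adjusted p = 3.17e-08, 1.49e-08 and 0.0379), and the estimate in P12-ICHIKAWA was -0.17 (adjusted p = 0.146). The SUPT11 call was lost without any of the 6 arrays of that line (up to 0.15) and, as the spread is shared, without P12-ICHIKAWA DMSO array 2 or treated array 1, RPMI-8402 DMSO array 1 or treated TALL-1 array 3. It was also lost with HBB as a covariate, in the line alone, with the replicate block and without the 3 arrays with foreign transcripts (up to 0.129). The P12-ICHIKAWA estimate passed without P12-ICHIKAWA DMSO array 3 (0.0313).

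WDR12 and PES1 form, with BOP1, a complex of large-subunit maturation. WDR12 fell by 0.48 in TALL-1 and by 0.89 in RPMI-8402 (SE 0.059; limma adjusted p = 2.86e-06 and 1.09e-09). In RPMI-8402 it went from 11.59, 11.54 and 11.53 to 10.68, 10.67 and 10.63, and in TALL-1 from 11.37, 11.13 and 11.42 to 10.78, 10.86 and 10.84. The groups did not overlap in either, and the fall in RPMI-8402 exceeded the mean of the other lines by 0.69 (adjusted p = 7.33e-07). SUPT11 gave 11.72, 11.65 and 11.66 against 11.54, 11.57 and 11.62, and in P12-ICHIKAWA 11.84, 11.96 and 11.85 against 11.85, 11.83 and 11.90, the latter with overlap. PES1 fell in RPMI-8402 by 0.80 ± 0.13 and had -0.14 in TALL-1. The RNA methyltransferase NOP2 fell by 0.76 in RPMI-8402 and 0.37 in TALL-1 (SE 0.14), the latter lost without any TALL-1 array but DMSO array 2. The helicase DDX56 fell by 0.62 and 0.31, NIP7 by 0.49 and 0.46, and NOC2L by 0.34 in each, in RPMI-8402 and TALL-1. The NOC2L calls were lost without TALL-1 DMSO array 1 or 3 or treated array 2 or 3, and without RPMI-8402 DMSO array 1 or 2 or treated array 1 or 3. NOC3L fell in RPMI-8402 by 0.48, and RRP1B fell by 0.48 in TALL-1 and by 0.20 in RPMI-8402, the latter lost without RPMI-8402 DMSO array 1 or 3 or treated array 1 or 3, the response of TALL-1 lying 0.39 below the mean of the others (adjusted p = 0.00208).

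The probe sets of NOP16 moved in opposite directions, and the brightest, as for PNO1 and TSR1, is of a kind that may cross-hybridise. Its brightest probe set rose in TALL-1 by 0.32 ± 0.060 (limma adjusted p = 3.07e-04), from 12.24, 11.98 and 12.05 to 12.34, 12.42 and 12.46, and the next brightest moved by 0.43. The other pair moved by -0.57 and -0.65 in TALL-1 and by -0.92 and -1.09 in RPMI-8402, where the brightest moved by -0.07. In SUPT11 the brightest read 13.20, 13.09 and 13.17 with DMSO and 13.23, 13.12 and 13.23 treated. In P12-ICHIKAWA it read 12.57, 12.55 and 12.47 against 12.52, 12.49 and 12.49, and in RPMI-8402 12.47, 12.49 and 12.47 against 12.41, 12.31 and 12.49. These groups overlapped. With the mean of all 4 probe sets the TALL-1 change was -0.12 (adjusted p = 0.159), and the RPMI-8402 change was -0.55 (adjusted p = 2.31e-06), so no direction is given for NOP16 in TALL-1. Over the 19 members with more than 1 probe set at a mean of log2 4 or more (49 probe sets), all probe sets were below 0 for 18 in RPMI-8402 (the exception being DDX56) and for 15 in TALL-1 (the exceptions being NOP16, POLR1E, UTP14A and NPM1). The median change of the dimmer probe sets lay below that of the brightest for 15 of the 19 in RPMI-8402 and 11 in TALL-1. In SUPT11 this held for 10 and in P12-ICHIKAWA for 7.

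The snoRNP proteins fell by small steps on their brightest probe sets. Those of FBL and NOLC1, at means of 14.07 and 14.03, read high on the scale, where differences may be compressed. All 6 proteins fell in RPMI-8402 (median -0.27) and 5 in TALL-1 (-0.27), with none called in SUPT11 or P12-ICHIKAWA (-0.09 and -0.06). NOP58, a core protein of the box C/D class that guides methylation, read 12.26, 12.29 and 12.40 with DMSO and 11.85, 11.90 and 11.83 treated in TALL-1, and 12.56, 12.51 and 12.50 against 12.16, 12.29 and 12.10 in RPMI-8402. It fell by 0.46 and 0.34 (SE 0.057; limma adjusted p = 3.06e-06 and 1.24e-04), without overlap in either. SUPT11 gave 12.33, 12.44 and 12.39 against 12.15, 12.26 and 12.28, also without overlap (change -0.16), and in P12-ICHIKAWA 12.97, 12.90 and 12.87 against 12.88, 12.86 and 13.02, with overlap (0.01). The fall in TALL-1 exceeded the mean of the others by 0.29 (adjusted p = 0.00252). FBL (fibrillarin), the methyltransferase of that class, fell in RPMI-8402 by 0.20 (SE 0.054), lost with the ACTB covariate (adjusted p = 0.11), and had 0.05 in TALL-1. Of the box H/ACA class, which guides pseudouridylation, NHP2 fell by 0.33 and 0.39, NOP10 by 0.21 and 0.20 (lost in TALL-1 without DMSO array 1 or 3 or treated array 1, and in RPMI-8402 without DMSO array 2 or 3 or treated array 1), and GAR1 by 0.15 and 0.19 in TALL-1 and RPMI-8402. NOLC1, a chaperone of both classes, fell by 0.33 and 0.35 in those lines on its brightest probe set, at a mean signal of 14.03, and its dimmest probe set, at 8.28, moved by -0.92 and -1.37.

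Of the Pol I list, 3 of 6 fell in RPMI-8402 (median -0.34) and 3 in TALL-1 (-0.13), and none was called in SUPT11 or P12-ICHIKAWA (-0.15 and -0.09). POLR1B, the second-largest subunit of the enzyme, had the largest fall of these in RPMI-8402, from 11.63, 11.69 and 11.57 to 10.66, 10.77 and 10.64. In TALL-1 it went from 11.31, 11.26 and 11.14 to 10.88, 10.85 and 11.04. Neither line had overlap. SUPT11 arrays gave 12.34, 12.26 and 12.17 against 12.09, 12.07 and 12.18, and in P12-ICHIKAWA 12.38, 12.18 and 12.33 against 12.12, 12.20 and 11.96, with overlap in both. It fell by 0.94 in RPMI-8402, to 52% of the DMSO level, and by 0.31 in TALL-1 (SE 0.075; limma adjusted p = 1.19e-08 and 0.0025), and the fall in RPMI-8402 exceeded the mean of the others by 0.72 (adjusted p = 7.44e-06).

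POLR1A, the largest subunit, had the largest change of the Pol I list on average over the lines, -0.43 ± 0.10 (limma adjusted p = 0.00167). In TALL-1 it read 7.60, 6.92 and 7.04 with DMSO and 6.57, 6.87 and 6.38 treated. On the RPMI-8402 arrays it read 9.43, 9.32 and 8.84 against 8.59, 9.0 and 8.58. The RPMI-8402 groups overlapped and the TALL-1 groups were narrowly apart. It fell by 0.58 ± 0.20 in TALL-1 (adjusted p = 0.0268), lost without DMSO array 1 or treated array 1 or 3 of that line (up to 0.166), and had -0.47 in RPMI-8402 (adjusted p = 0.0748), which passed without RPMI-8402 DMSO array 3, treated array 2 or TALL-1 DMSO array 1 (down to 0.0232), and with quantile normalization, the ACTB covariate, all probe sets averaged or the 3 arrays with foreign transcripts left out (down to 0.00201). SUPT11 read 8.28, 8.55 and 8.44 against 8.05, 8.26 and 8.07, and P12-ICHIKAWA 9.12, 8.57 and 8.56 against 8.35, 8.59 and 8.14. POLR1C, a subunit shared with RNA polymerase III, fell by 0.35 in TALL-1 and 0.65 in RPMI-8402 (SE 0.077). POLR1E, a subunit of the dissociable part of the enzyme, fell by 0.21 in RPMI-8402 and had 0.10 in TALL-1 on its brightest probe set, while its dimmer pair moved by -1.15 and -0.70 in RPMI-8402 and by -0.49 and -0.32 in TALL-1. RRN3, the initiation factor that makes the enzyme competent, had changes of 0.07, -0.03, -0.08 and 0.06 in the 4 lines, in the order given for UTP20, with no call. It has near-identical pseudogenes, so its reading is uncertain. TAF1D, of the promoter factor SL1, was not called in any line (0.05, -0.27, 0.08 and -0.12).

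The 3 abundant nucleolar proteins had medians of -0.12, -0.10, -0.09 and -0.18 in TALL-1, SUPT11, P12-ICHIKAWA and then RPMI-8402. NCL (nucleolin) fell by 0.21 in TALL-1 and 0.18 in RPMI-8402 (SE 0.051), the latter lost without treated RPMI-8402 array 3. DDX21, a helicase that acts in both rRNA transcription and processing, fell in RPMI-8402 by 0.30 ± 0.050 (limma adjusted p = 9.21e-05), from 13.64, 13.56 and 13.62 to 13.22, 13.38 and 13.32. TALL-1 arrays read 13.59, 13.48 and 13.49 against 13.36, 13.43 and 13.42. SUPT11 arrays read 13.31, 13.34 and 13.30 against 13.08, 13.26 and 13.22, and in P12-ICHIKAWA 13.92, 13.95 and 13.96 against 13.88, 13.84 and 13.85. No treated array reached a DMSO array of its line, yet outside RPMI-8402 the changes were -0.12, -0.13 and -0.09 and were not called. In TALL-1 the adjusted p was 0.0624, and it passed without treated array 1 of RPMI-8402 or of SUPT11 (down to 0.0384), and with HBB as a covariate, quantile normalization, median centring, all probe sets averaged or an intensity trend in the variance (down to 0.00242). NPM1 (nucleophosmin) read between 15.37 and 15.65 on all 24 arrays, with changes of 0.00, -0.05, -0.03 and -0.03 (SE 0.033). Its signal was close to the array maxima, where a difference may be compressed.

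**Figure D3:**
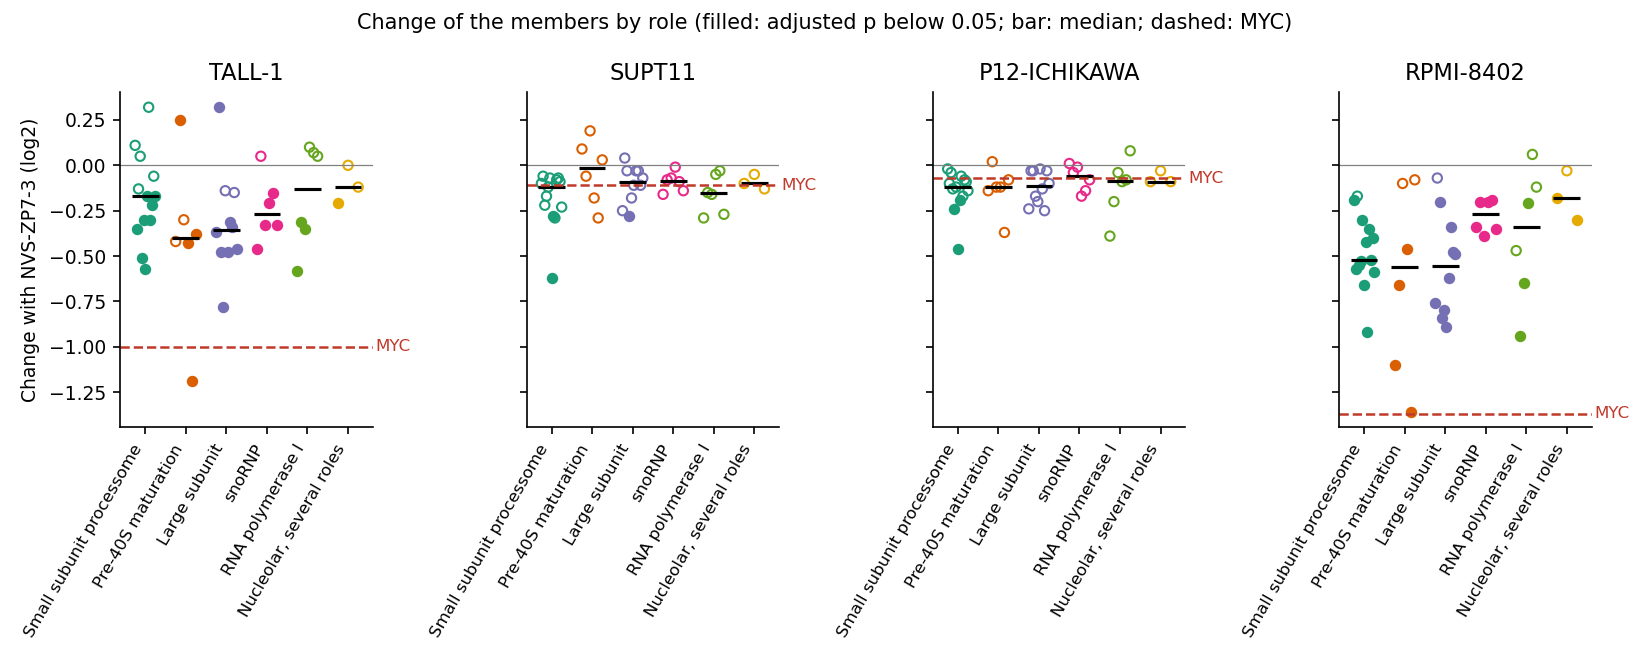
Change of the 44 members with NVS-ZP7-3 (log2, points; filled when the limma adjusted p is below 0.05) by role in each line, with the median of a role as a black bar and the MYC change as a dashed red line. The members of TALL-1 and RPMI-8402 spread between 0.32 and -1.36, nearly all above the MYC line at -1.0 and -1.37, while in SUPT11 and P12-ICHIKAWA they lie around MYC at -0.11 and -0.07.

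MYC fell in the lines with the most falling members, TALL-1 and RPMI-8402. In TALL-1 MYC read 12.12, 11.73 and 11.77 with DMSO and 10.83, 11.05 and 10.72 treated. In RPMI-8402 it read 11.92, 12.01 and 11.86 against 10.44, 10.73 and 10.52. Both lines separated without overlap. In SUPT11 it read 11.93, 11.95 and 11.90 against 11.85, 11.79 and 11.81, and in P12-ICHIKAWA 13.55, 13.45 and 13.31 against 13.39, 13.48 and 13.22. The SUPT11 groups were close and apart and the P12-ICHIKAWA groups overlapped. The MYC changes were -1.0 and -1.37 in TALL-1 and RPMI-8402 (SE 0.10; limma adjusted p = 2.85e-07 and 5.93e-09), to 49.9% and 38.7% of the DMSO level, and -0.11 and -0.07 in SUPT11 and P12-ICHIKAWA (adjusted p = 1 and 0.813). The difference between the MYC responses of RPMI-8402 and TALL-1 was 0.37 ± 0.15 (adjusted p = 0.0772). A change below that of MYC was found for BYSL alone in TALL-1 and for no member in RPMI-8402, and for 19 members in SUPT11 and 30 in P12-ICHIKAWA, where the MYC change itself was not called. With 4 lines no correlation is given, and the part of MYC in the change of the members was not tested.

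The members were also split by the E-box of the promoter. In RPMI-8402, 14 of 15 with a CACGTG match fell (median -0.48) and 16 of 23 without (-0.39), against 21.5% of all genes. In TALL-1, 10 of 15 (-0.30) and 13 of 23 (-0.21) fell (19.6% of all genes), and 2 of the 23 rose (22.3%). In SUPT11, 2 of 15 (-0.17) and 0 of 23 (-0.09) fell (0.582% of all genes). In P12-ICHIKAWA, 2 of 15 (-0.13) and 1 of 23 (-0.09) fell (2.98%). The shares of all genes were not split by the match, and its part in the changes was not tested. UTP20, with its match 10 bases before the start, fell in all 4 lines, and POLR1B, whose window printed above held none, was among the 3 largest falls of members in RPMI-8402.

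With DMSO alone, the lines already differed in the members. The F test among DMSO groups called all 44, as it did 96.3% of all genes. P12-ICHIKAWA had the highest level for 28 members (20.9% of all genes had their highest level there) and was above the next line by the pairwise test for 20 of them. RPMI-8402 had the highest for 11 (21.5% of all genes), SUPT11 for 5 (34.5%) and TALL-1 for none (23.1%). TALL-1 had the lowest level for 29 (31.8% of all genes) and was below the next line for 20. SUPT11 had the lowest for 14, near its share of all genes (30%). The share of all genes that passed the pairwise test against the next line was not computed. Relative to the mean of the 4 lines for each gene, the median of the members was 0.36 in P12-ICHIKAWA, 0.14 in RPMI-8402, -0.13 in SUPT11 and -0.32 in TALL-1. TALL-1 lay below P12-ICHIKAWA for 41 of 44 members (37% of all genes) and above it for none (33.3%; 42 and 0 members at an unadjusted limma p under 0.05). MYC also had its highest level in P12-ICHIKAWA. It was 1.51 ± 0.10 higher in P12-ICHIKAWA than in SUPT11 (limma adjusted p = 8.56e-11). SUPT11 and RPMI-8402 did not differ in MYC beyond their spread (0.01, adjusted p = 0.964), nor did RPMI-8402 and TALL-1 (0.06, adjusted p = 0.624).

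The widest gaps between lines were in RRP12, UTP20, PES1 and POLR1A, at 2.87, 2.76, 2.19 and 2.01. UTP20 averaged 10.40 ± 0.15 in RPMI-8402, 10.37 ± 0.052 in P12-ICHIKAWA, 9.28 ± 0.11 in TALL-1 and 7.64 ± 0.35 in SUPT11 (SD, n = 3). P12-ICHIKAWA and RPMI-8402 did not differ beyond their spread (limma adjusted p = 0.84). RRP12 averaged 4.32 ± 0.46 in SUPT11 and 7.19 ± 0.25 in RPMI-8402. PES1 averaged 10.53 ± 0.040 in P12-ICHIKAWA, 9.77 ± 0.091 in RPMI-8402, 9.30 ± 0.23 in TALL-1 and 8.34 ± 0.10 in SUPT11, and each neighbouring pair differed (limma adjusted p = 4.94e-05, 0.00324 and 1.72e-06). POLR1A averaged 9.20 ± 0.32 in RPMI-8402, 8.75 ± 0.32 in P12-ICHIKAWA, 8.42 ± 0.14 in SUPT11 and 7.19 ± 0.37 in TALL-1, and the lower-ranked pair differed (limma adjusted p = 1.60e-05). Each of these readings compares a probe set with itself between lines.

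**Figure D4:**
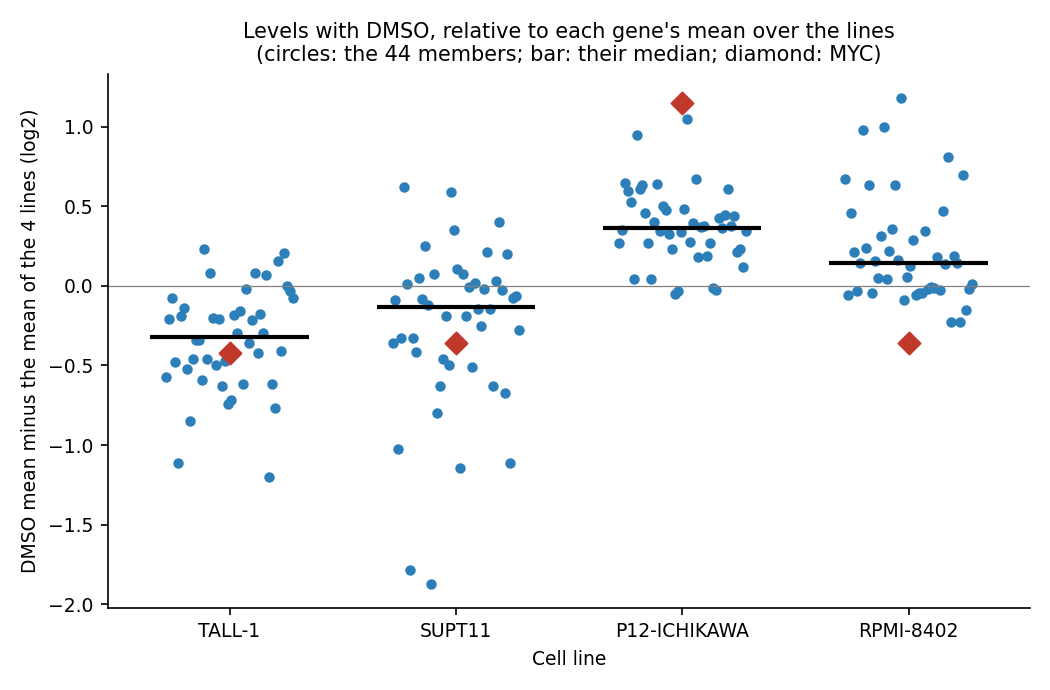
Mean DMSO signal of each of the 44 members (circles) and MYC (diamonds) in each line minus that gene's mean over the 4 lines (log2), with the median of the members as a black bar. The medians are -0.32, -0.13, 0.36 and 0.14 for the lines from left to right, and MYC lies at 1.15 in P12-ICHIKAWA and between -0.42 and -0.36 elsewhere.

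Other genes of the same pathways were read from further lists, against backgrounds of 19.6% lower and 22.3% higher over all tested genes in TALL-1, and 21.5% and 15.1% in RPMI-8402. Of 37 other small subunit factors, 28 fell in RPMI-8402 (75.7%) and none rose, and 20 fell (54.1%) and 2 rose in TALL-1. PWP2, of UTP-B, fell by 1.58 ± 0.28 in TALL-1 and by 1.26 in RPMI-8402 (limma adjusted p = 1.67e-04 and 0.00169), and NOL6 by 0.79 and 0.65. In TALL-1 the count of this list dropped to 13 with the ACTB covariate and 10 in the line alone. Of 40 other large subunit factors, 32 fell in RPMI-8402 (80%), and 13 fell (32.5%) and 5 rose (12.5%) in TALL-1. MRTO4, a placeholder of the ribosomal stalk, fell by 1.08 ± 0.093 in RPMI-8402 and by 0.87 in TALL-1, and also in SUPT11 by 0.38 (adjusted p = 0.0458). Of 11 other snoRNP factors, 6 fell in RPMI-8402 (54.5%), and 5 fell (45.5%) and 2 rose (18.2%) in TALL-1, with changes of TCOF1 (treacle) of -1.04 ± 0.13 in TALL-1 and -0.74 in RPMI-8402.

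Of 15 other Pol I genes, several of them subunits shared between polymerases, 9 fell in RPMI-8402 (60%), and 6 fell (40%) and 1 rose in TALL-1. POLR1G, a subunit of the enzyme, had changes of -1.05 ± 0.12 in RPMI-8402 and -0.92 in TALL-1 (limma adjusted p = 8.82e-07 and 3.06e-06). Of 13 RNA exosome genes, which trim the precursor, 7 fell in RPMI-8402 (53.8%), among them EXOSC4 by 1.67 ± 0.21, and 5 fell (38.5%) and 1 rose in TALL-1. Of 20 RNA polymerase III genes, 6 fell (30%) and 5 rose (25%) in TALL-1, close to the 19.6% and 22.3% of all tested genes. In RPMI-8402 7 fell (35%) and 1 rose (5%, against 21.5% and 15.1%), and POLR3K fell by 0.84 ± 0.089 there and 0.64 in TALL-1. Of 24 other MYC targets, 17 fell (70.8%) and 1 rose in RPMI-8402, and 13 fell (54.2%) and 1 rose in TALL-1. The folate carrier SLC19A1, on this list, fell by 0.71 and 0.65 in those lines (SE 0.13).

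Among the ribosomal proteins, 1 call lower was made in both lines together. Of 31 large-subunit proteins, 1 fell and none rose in RPMI-8402 (median -0.01), and none fell and 6 rose in TALL-1 (0.06), the latter a share of 19.4% near the 22.3% of all tested genes. Of 21 small-subunit proteins, none was called in RPMI-8402 (-0.01), and 3 rose in TALL-1 (0.04; 14.3%). Those rises were small, RPL12 at 0.17 ± 0.048 and RPS9 at 0.13 ± 0.043 in TALL-1, and with each array centred on its median 1 of each list rose there, with list medians of 0.01 and -0.01. Group means of RPL3, RPL12 and RPS9 lay between 14.67 and 15.35, near the top of the scale, where differences may be compressed. Of 9 genes of the MYC network, 1 fell and 4 rose in TALL-1, 1 fell and 1 rose in RPMI-8402, 2 rose in P12-ICHIKAWA (4.91% of all genes rose there) and none was called in SUPT11. MXD1 and MNT, partners of MAX that oppose MYC, rose in TALL-1 by 1.08 ± 0.18 and 0.73 ± 0.12 (limma adjusted p = 1.04e-04 and 6.81e-05), and MNT rose in RPMI-8402 by 0.45, while MXD1 had 0.10 there. MXD3, another such partner, rose in P12-ICHIKAWA by 0.58 ± 0.17 (adjusted p = 0.0382) and had -0.21 in TALL-1 and 0.22 in RPMI-8402.

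**Figure D5:**
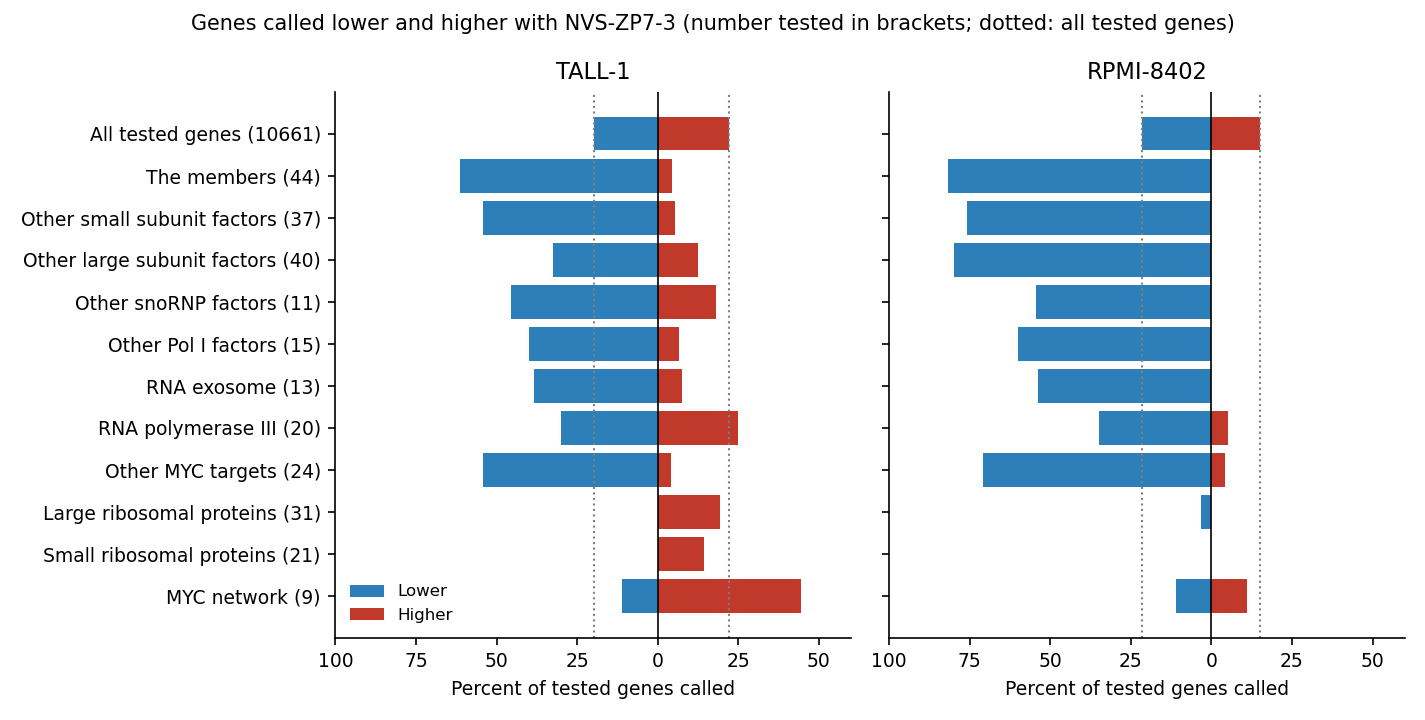
Percent of the tested genes of each list (rows, number tested in brackets) called lower (blue, to the left) and higher (red, to the right) with NVS-ZP7-3 in TALL-1 and RPMI-8402, with the share over all 10661 tested genes as dotted lines. The 44 members and the other small subunit factors extend far to the left of the dotted line in both panels, most in RPMI-8402 (81.8% of the members). The other large subunit factors do so in RPMI-8402 (80%) and much less in TALL-1 (32.5%, against 19.6% of all genes), while the ribosomal proteins hardly extend to the left.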

How the data were processed

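The labels describe cells plated in 10 ml of medium and treated on the same day, RNA isolation with a column kit and labelling by the Affymetrix 3' protocol. The authors deposited 1 log2 value per probe set and array, made with GCRMA (background correction, normalization between arrays and summary of probes) per the submitters' processing notes, which also name limma and give no version; undetected probe sets share a floor, so changes of dim genes are understated and those near the maximum may be compressed. The deposited values were used unchanged.

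Of 54675 probe sets, 41097 name a single gene, 1801 several and 11777 none in the platform annotation; 41043 were matched to RefSeq and 54 kept their older symbol. A gene was read from its brightest single-gene probe set, and kept when it reached log2 4 on at least 3 arrays. The fit used limma 3.58.1 in R 4.3.3 with 8 group means over 24 arrays and Benjamini-Hochberg adjustment over 10661 genes; contrasts were the change in each line, its mean, the interaction, the pairwise differences of change and the DMSO differences. The fit was also run on simulated arrays with known changes. Of 100 changes of log2 0.5 in a line it recovered 57 to 70, and of 100 changes of log2 1 it recovered 82 to 93. The number of arrays limits the precision.

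The members, the further lists and the tests were chosen with earlier results of these data known, so the lists are no independent evidence of a direction. By the rule for named genes, values array by array are given for the member with the largest average change in each role, the 3 largest called falls and rises in each line, the 5 members with the widest range of change, and MYC; of each further list, up to 3 genes with the largest average change. Alternatives covered the filter, the probe set rule, scaling, variance model, the replicate number as a block, each line alone, ACTB or HBB as a covariate, 3 arrays left out together and each array left out. Same-numbered arrays of a line had correlations of deviations between -0.141 and 0.424, not above 0.1 in every pair of any line, so numbers were not taken to pair samples.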

Additional observations from a re-analysis of the deposited data

Results flagged for a closer look

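The size of the change with NVS-ZP7-3 differed among the 4 lines for 25 of the 44 members and for MYC, by the limma F test of the interaction with Benjamini-Hochberg adjustment, against 35.8% of all tested genes. For each, the value is the range of the change over the lines on the log2 scale. Among the small subunit factors it was 1.24 for RRP9, 1.19 for RRP12, 1.07 for BYSL, 0.91 for NOB1, 0.60 for UTP14A, 0.51 for UTP4, 0.45 for DDX10, 0.44 for WDR3, 0.40 for UTP15, 0.34 for WDR75 and 0.33 for LTV1. Among the large subunit factors it was 0.87 for WDR12, 0.67 for RRS1, 0.66 for PES1, 0.58 for DDX56, 0.45 for NOC3L, 0.45 for RRP1B, 0.42 for NIP7 and 0.39 for NOP16, whose probe sets disagree. The snoRNP proteins NOP58, NHP2 and NOLC1 had ranges of 0.46, 0.38 and 0.27. The Pol I subunits POLR1B, POLR1C and POLR1E had ranges of 0.80, 0.61 and 0.30. MYC had 1.30. The lowest change lay in RPMI-8402 for 23 of the 25 members and for MYC, and in TALL-1 for NOP58 and RRP1B.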

How the results depend on the processing

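Among members called in TALL-1 (29) the count fell to 18 when the line was fitted alone. In SUPT11 (3) it was 0 with the line fitted alone (limma; 11 members had an unadjusted p under 0.05 in the fit of all lines) and 5 after quantile normalization, and in P12-ICHIKAWA (3) it was 1 with HBB as a covariate and 1 with the replicate number as a block. NOP16 reversed with the mean of all its probe sets, to -0.12 in TALL-1 and -0.22 on average over the lines, because its probe sets disagree. For the other moves the cause was not tested. Other alternatives gave 23 to 31 calls in TALL-1, 32 to 37 in RPMI-8402, 30 to 37 on average over the lines, 20 to 27 for the interaction and 42 to 44 for the DMSO groups. Leaving out 1 array at a time gave 23 to 30 in TALL-1, 1 to 4 in SUPT11, 1 to 3 in P12-ICHIKAWA, 31 to 37 in RPMI-8402, 33 to 36 on average, 20 to 29 for the interaction and 43 to 44 for DMSO. The replicate block kept 27 of 29 calls in TALL-1, 2 of 3 in SUPT11, 1 of 3 in P12-ICHIKAWA, 33 of 36 in RPMI-8402 and 34 of 35 on average, with 20 for the interaction. MYC kept its calls in TALL-1 (-1.26 to -0.98) and RPMI-8402 (-1.53 to -1.35) and was not called in SUPT11 or P12-ICHIKAWA under any alternative run. With 1 array left out at a time its change ranged from -1.09 to -0.88 in TALL-1 and from -1.45 to -1.31 in RPMI-8402. No fit of a line alone exists for the average, the interaction or the DMSO groups, and no replicate block for the DMSO groups. With 3 arrays a group, the low counts in SUPT11 and P12-ICHIKAWA do not show that their members stayed level.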
